A study of Drosophila melanogaster with 8 samples.

Results

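N6-methyladenine (6mA) regions were mapped in the pericentromeric ends of the Drosophila melanogaster chromosome arms and on chromosome 4. Overlapping peaks of the 4 immunoprecipitated libraries, by 1 bp or more, gave 7001 merged regions. The 442 regions described here had their midpoint on chromosome 4, on 2L or X from 22 Mb, on 3L from 22.9 Mb, or on 3R up to 4.2 Mb. They comprised 44 regions on 2L, 177 on 3L, 108 on 3R, 64 on X and 49 on chromosome 4. They were compared with the 5141 regions on the rest of 2L, 3L, 3R and X. Arm 2R had no zone and was left out of this comparison, but shares over all arms include it. The choice of zones used position only, and no chromatin mark was measured here to place their borders.

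DNA came from whole ovaries of control flies and of flies in which the germline driver nanos-gal4 expressed UASp-Sam-S, and the batches 1 and 2 each held 1 control and 1 Sam-S overexpression sample. The product of Sam-S is S-adenosylmethionine synthetase, which supplies the cell with its methyl donor. The genotype of the control flies is given only as control or wildtype, and neither the age nor the number of pooled females is given. Each of the 4 samples was sequenced after immunoprecipitation with a 6mA antibody and as input DNA. The driver acts in germ cells, while an ovary also holds somatic follicle cells, so a mark carried by fewer cells and a weaker mark per cell cannot be told apart.

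Pericentromeric heterochromatin is the compact, repeat-rich DNA that flanks the centromeres. It carries methylated histone H3 lysine 9 and heterochromatin protein 1, and its genes are sparse and often have very long introns full of transposon remnants. Chromosome 4 is a small chromosome whose arm mixes active genes with heterochromatin. In the ovary these regions also hold clusters that produce piRNAs, the small RNAs that silence transposons in germ cells. 6mA is a methylated base known best from bacterial DNA, and its level in animal DNA is debated. An antibody-based assay cannot tell a methylated base from other material that the antibody holds.

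After removal of duplicate tags the immunoprecipitated libraries held 39591292 to 49800736 tags and their inputs 39571865 to 52344880. Libraries are called by genotype and batch, as in control 2, and runs of 4 values follow one order: the control libraries by batch, then the Sam-S libraries by batch. Control 2 stood apart before any comparison, with 683 peaks in its whole list against 3433 to 5509 in the others, and the main differences are therefore also given without it. The alignments used for calling are named as unique in the file headers, and the repeats of the zones were not analysed here. A region missing from a list was not called, which does not show that 6mA was absent.

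The zones held fewer peaks per megabase than the rest of the same arms in all 4 libraries. Control 1 had 241 peaks in the zones, or 17.5 per Mb (95% Poisson interval 15.3 to 19.8), against 25.9 per Mb on the rest. Control 2 had 48 peaks, or 3.48 per Mb (2.56 to 4.61), against 4.81. Sam-S 1 had 250 peaks, or 18.1 per Mb (15.9 to 20.5), against 34.6. Sam-S 2 had 379 peaks, or 27.5 per Mb (24.8 to 30.4), against 42.2. The zone density was thus 0.675, 0.723, 0.523 and 0.651 times that of the rest, a mean log2 ratio of -0.65 ± 0.20 (SD, n = 4). An exact sign-flip permutation test over the 4 libraries gave p = 0.125 (two-sided), the smallest value that 4 libraries allow. Without control 2 the mean was -0.71. The intervals cover counting error only. Lengths count all bases, and the part of sequence without unique alignments in the lower density was not tested. Zone lengths on 2L, 3L, X and chromosome 4 end at the last base of a peak or annotated gene. On 3R the zone runs to the start of the arm and so includes sequence with no peak. The zones were 13.8 Mb in all against 94.8 Mb for the rest, and with 3R counted from its first peak the mean log2 ratio was -0.62.

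The 5 zones were not alike. X had the largest deficit: 19.5, 4.55, 23.4 and 35.8 peaks per Mb against 45.2, 9.45, 57.3 and 72.7 on the rest of X, a mean log2 ratio of -1.15 ± 0.13 (SD, n = 4). On 3R the zone held 13.6, 3.33, 14.3 and 23.1 peaks per Mb against 22.1, 3.98, 31.6 and 37.6, a mean log2 ratio of -0.70 ± 0.36 (SD, n = 4). On 3L it held 18.1, 2.50, 19.2 and 28.6 against 21.8, 3.62, 29.9 and 34.5, a mean of -0.43 ± 0.19 (SD, n = 4). X, 3R and 3L were lower in 4 of 4 libraries. Without control 2 their means were -1.18, -0.85 and -0.39.

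On 2L the values were 16.5, 2.64, 14.5 and 21.1 per Mb against 15.7, 2.45, 20.8 and 25.6, higher in the zone in both control libraries and lower in both Sam-S libraries. Chromosome 4 had no remainder of its own and was set against the rest of the other 4 arms: 26.0, 7.44, 23.8 and 34.2 per Mb against 25.9, 4.81, 34.6 and 42.2. Its mean log2 ratio of -0.05 ± 0.51 (SD, n = 4) was smaller than the spread between libraries. Without control 2, chromosome 4 ranged from 0.687 to 1.01 times the rest.

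The deficit was not spread evenly within the zones. Merged regions were counted in bins of 500 kb from the border towards the centromere. On 3R the first bin inside the border held 62 regions per Mb and the second 54. The bins further in held between 8 and 30, with 0 regions in the last 200 kb. On X the 3 full bins inside the border held 40, 42 and 42 regions per Mb, under the 44 to 76 of the outer bins shown beside them. On 3L the bins inside the border ranged from 8 to 50 regions per Mb with no steady trend, and on 2L from 16 to 44. The outer bins held 38 to 70 on 3R, 22 to 74 on 3L and 22 to 52 on 2L. On these arms the inner and outer ranges overlapped.

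The regions nearest to the borders had peaks in the Sam-S libraries alone, as did 51.2% of all 7001 regions. On 2L the innermost region outside the border (21989736 to 21989962, in the gene CG2528) had a peak only in Sam-S 2, with a fold of 1.88, and the first inside (22033041 to 22033254) only in Sam-S 1, with a fold of 1.79. On 3R the first region inside (4143247 to 4143569) had folds of 1.83 and 1.79 in Sam-S 1 and Sam-S 2, and the first outside (4208101 to 4208327) a fold of 1.30 in Sam-S 2. On 3L the pair nearest the border had 1.64 inside in Sam-S 2 and 1.83 and 1.796 outside in both Sam-S libraries. On X it had 2.05 inside and 1.25 outside, both in Sam-S 2 alone.

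**Figure D1:**
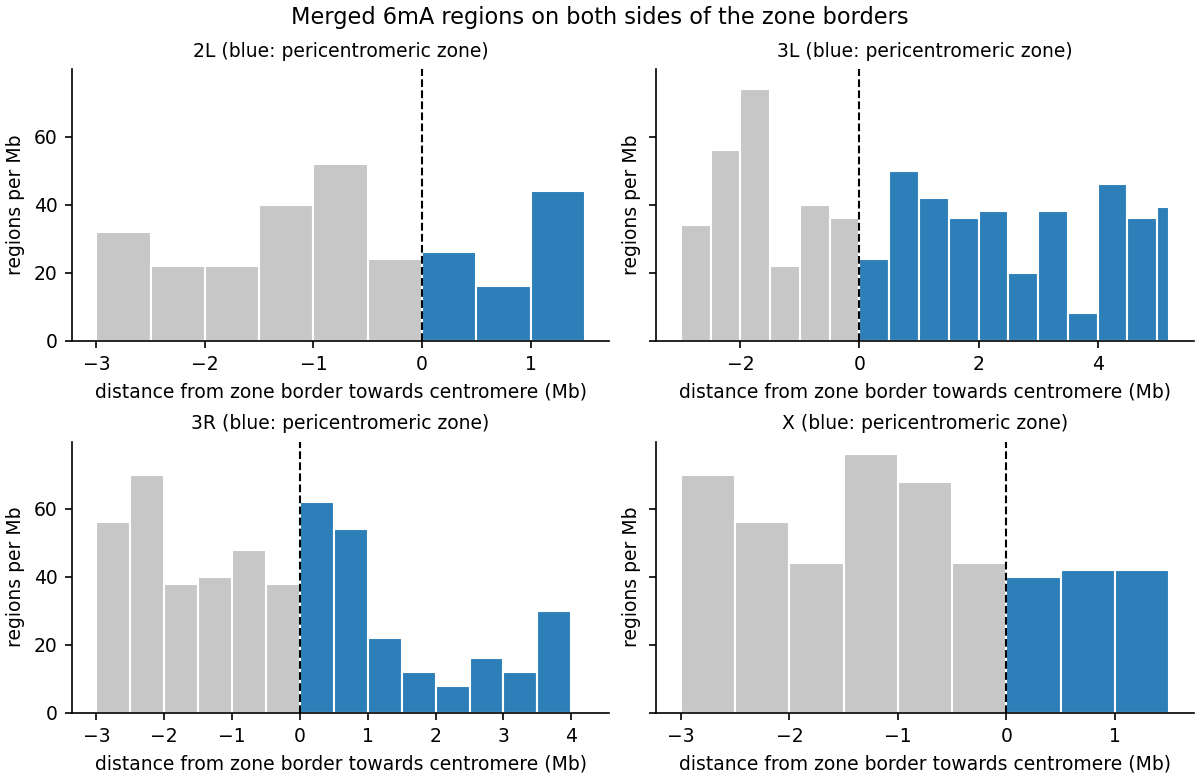
Merged regions per Mb in bins of 500 kb against distance from the zone border, negative outside and positive inside, for 2L, 3L, 3R and X. On 3R the bins hold 62 and 54 just inside the border and 8 to 30 further in, and on 3L they vary between 8 and 50 without a steady trend.

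Peaks in the zones were wider than those on the rest of the arms. The median width was 276 against 253 bp in control 1 and 267 against 252 bp in control 2. It was 273 against 252 bp in Sam-S 1 and 288 against 256 bp in Sam-S 2. The mean difference was 22.75 ± 7.04 bp (SD, n = 4), in the same direction in 4 of 4 libraries (exact sign-flip permutation p = 0.125, two-sided, the smallest value possible), and 25.3 bp without control 2. Reads were extended to 200 bp upstream, which sets the lower end of the widths.

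Broad peaks made up more of the zones in the 3 larger lists. Peaks over 500 bp were 12.0% of zone peaks in control 1 (29 peaks), 13.2% in Sam-S 1 (33) and 14.5% in Sam-S 2 (55), against 5.18, 5.94 and 6.12% on the rest. In control 2 they were 4.17% (2 of 48 peaks) against 8.11%, the opposite order. By zone, the median width exceeded that of the rest in 4 of 4 libraries on 3R (by 38 to 56.5 bp), on chromosome 4 (by 22 to 63 bp) and on 3L (by 7.5 to 16 bp). On X it did so in every library but control 2, and on 2L in 2 of 4.

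Fold enrichment, the authors' ratio of the pileup at a peak summit to the local input background with 1 added to both, was nearly the same inside and outside the zones. The median was 1.89 against 1.90 in control 1 and 1.75 against 1.78 in control 2. It was 1.997 against 1.944 in Sam-S 1 and 2.02 against 1.99 in Sam-S 2. The mean difference of 0.0086 ± 0.0374 (SD, n = 4) was smaller than its spread (exact sign-flip permutation p = 0.75, two-sided), and it was 0.0217 without control 2. The top of the scale was lower in the zones: the highest fold was 2.92, 2.53, 2.88 and 3.55, against 4.29, 3.41, 4.30 and 5.06 in the longer lists of the rest. The 90th percentile was nearly the same, 2.35, 2.103, 2.38 and 2.60 against 2.36, 2.09, 2.46 and 2.59.

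Chromosome 4 had the highest folds of the 5 zones relative to the rest. Its median was 1.94, 1.83, 2.06 and 2.12, above the rest by 0.04 to 0.12 in 4 of 4 libraries (exact sign-flip permutation p = 0.125, two-sided, the smallest possible). The 2L zone was below the rest of 2L in 4 of 4 libraries, with a mean difference of -0.07 ± 0.04 (SD, n = 4, exact sign-flip permutation p = 0.125). Without control 2 the mean difference was 0.0937 on chromosome 4 and -0.0627 on 2L. No test of chromosome 4 against 2L was made.

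The input background behind the folds differed between the zones and the rest. The upstream calling takes as background the larger of a genome-wide and a local input value, so input coverage under the genome-wide value cannot be read. The local input exceeded the genome-wide value by more than 2% at 32.8, 47.9, 34.4 and 35.9% of zone peaks, against 42.4, 59.6, 46.9 and 44.4% on the rest. Extreme input was more frequent in the zones: a background of more than 2 times the genome-wide value stood behind 6, 4, 7 and 25 zone peaks, or 2.49, 8.33, 2.80 and 6.60%, against 0.163, 0.219, 0.122 and 0.550%.

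Pileups close to the ceiling, the value at which every position of the 200 bp window on both strands holds a tag, were likewise concentrated in the zones. At least 75% of that ceiling was reached by 5, 4, 6 and 14 zone peaks, or 2.07, 8.33, 2.40 and 3.69%, against 0.407, 0.219, 0.365 and 0.300% on the rest. The part of high input and of the ceiling in the widths and folds of the zones was not tested.

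Most regions of the zones lay outside genes. Of the 442 regions, 165 (37.3%, Wilson 95% interval 32.9 to 41.9) overlapped a gene of the RefSeq table, against 82.2% on the rest and 77.9% of all 6556 regions on the arms. The zones also held less gene sequence, with genes covering 49.3% of their length against 73.0% of the rest. By library, 34.0, 31.3, 39.2 and 38.3% of zone peaks had their midpoint in a gene, against 82.6, 86.6, 82.1 and 82.7%. Gene positions are those of assembly release 6. The build of the peak lists is not given in the sources used here, so statements on genes hold only if both share coordinates. Moving all regions by 5 or 50 kb in either direction changed the share of midpoints in genes from 77.3% to between 72.5 and 75.3% over all arms. For the zone regions it was 37.1% as placed and 37.3 to 45.5% when moved.

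The share of regions in genes differed between the zones, as did the length covered by genes. On 3R 53 of 108 regions (49.1%) overlapped a gene, where genes cover 69.9% of the zone. On X it was 27 of 64 (42.2%) with a cover of 31.0%, and on 3L 61 of 177 (34.5%) with 36.2%. On 2L 7 of 44 (15.9%) overlapped a gene, with a cover of 29.6%. On chromosome 4 17 of 49 (34.7%) did so, although genes cover 79.2% of it.

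Of the 366 genes in the zones, 57 (15.6%) overlapped a region. The share was 13.6% of genes on the rest and 12.9% of all 17684 genes on the arms, 2R included. The list of known pericentromeric genes had 14 members in the zones, and 7 of them overlapped at least 1 region. These listed genes are long, with a median length of 31.3 kb against 2.42 kb for all genes of the zones. The part of gene length in this share was not tested. Per length, the zones held 32.0 regions per Mb, against 54.2 on the rest.

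Myo81F, a myosin heavy chain gene of 1966 kb on 3R, held the most regions of any gene in the zones, 28. The 4 libraries had peaks at 15, 4, 19 and 26 of them, and 4 had peaks in all 4 libraries. Per length it held 14.2 regions per Mb, below the 25.7 of its zone. Its strongest region lay at 3R 621664 to 622355, with folds of 2.44, 2.12, 2.88 and 2.96. They were higher in both Sam-S libraries than in both controls, as at other named regions.

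The gene l(3)80Fg on 3L held 17 regions (78.8 per Mb), with peaks at 10, 1, 10 and 16 of them. Its region at 25964362 to 25964804 had folds of 2.76, 2.78 and 2.96 in control 1, Sam-S 1 and Sam-S 2 and no peak in control 2. Snap25, which encodes a SNARE protein of synaptic vesicle fusion, held 15 regions (66.7 per Mb), with peaks at 5, 1, 7 and 13. At its region 24173517 to 24174910 the local input was 192.7 and 203.8 tags in the Sam-S libraries, against genome-wide values of 75.1 and 79.0, and the highest folds were 1.43 and 1.69.

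Parp1, the poly(ADP-ribose) polymerase that loosens chromatin, held 10 regions (79.6 per Mb) on 3R, with peaks at 4, 0, 3 and 9. AGO3, the Piwi-family protein that amplifies piRNAs in germ cells, held 7 regions on 3L (51.8 per Mb), with peaks at 3, 1, 5 and 6. Its strongest region, 23663977 to 23664737, had folds of 2.63, 2.096, 2.71 and 3.03, lowest in control 2 and highest in Sam-S 2. Dbp80, a DEAD-box RNA helicase, held 6 regions (42.0 per Mb) with peaks at 3, 0, 3 and 4. The ecdysone synthesis gene nvd held 2, and fog, which encodes a secreted signal of gastrulation, held 1.

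The other 7 listed pericentromeric genes overlapped no region. They were lt, a vesicle trafficking gene, cta, a G protein alpha subunit gene, RpL15, a ribosomal protein gene, vtd, the cohesin subunit gene, Set1, a histone H3 lysine 4 methyltransferase gene, spok, an ecdysone synthesis gene, and su(f), an mRNA 3′ end processing gene.

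Of 35 listed genes of chromosome 4, 6 (17.1%) overlapped a region, against 13 of all 114 genes of the chromosome (11.4%) and 12.9% of all genes on the arms. The listed genes were longer, with a median of 11.3 kb against 6.74 kb. The transcription factor gene pan, the TCF of Wingless signalling, held 4 regions, and its per-library count was 4, 1, 4 and 4. The region at 4 76599 to 76881 in pan had the highest mean fold of all 442, with 2.76 in control 1 and 2.71 in Sam-S 1 of the same batch, 3.55 in Sam-S 2 and no peak in control 2. Beside it, 76999 to 79723 was the widest of the 442 regions at 2725 bp. Its folds were 2.42, 2.29, 2.55 and 2.44, close together in all 4 libraries. Control 2 had 2 peaks within it, and the highest fold of each library is given, so the summits may differ. The muscle protein gene bt (projectin) held 1 region, 732066 to 732376, with folds of 2.49, 1.82, 2.22 and 3.01.

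The remaining 4 listed genes of chromosome 4 held 1 region each. Sox102F, a SoxD transcription factor gene, had folds of 2.05, 2.04 and 2.15 in control 1, Sam-S 1 and Sam-S 2. The kinase gene Dyrk3 had 2.05 and 2.06 in both Sam-S libraries alone. Mitf, a transcription factor gene of lysosome biology, had 1.67, and dati, a zinc finger gene, 2.12, both in Sam-S 2 alone. Genes without a region included the developmental regulators ci, ey, toy, zfh2, sv and pho.

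Along chromosome 4 the regions were gathered at both ends. Beyond the last annotated gene, 26 of the 49 regions (53.1%) lay within the 64.7 kb from 1279477 to 1344206. This terminal stretch is defined by the end of the genes and by its first and last region, so it overlaps no gene by construction. Its per-library peak number was 18, 5, 18 and 23, and 5 of its regions had peaks in all 4 libraries. The first 200 kb held 12 regions (60 per Mb), 4 of them in pan. The 1000 kb between 200001 and 1200000 held 8 regions (8 per Mb), with 5, 1, 3 and 7 peaks.

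The terminal stretch had more input behind its called peaks than the chromosome before it. The local input exceeded the genome-wide value at 61.1, 100, 77.8 and 82.6% of its peaks, and its median was 1.32, 1.75, 1.28 and 1.32 times the genome-wide value. At the 23 regions before it these shares were 11.8, 20, 28.6 and 17.4%. Median folds were 1.85, 1.79, 1.93 and 2.09 in the terminal stretch and 2.02, 1.83, 2.20 and 2.15 before it. The part of input depth in this accumulation was not tested.

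Without the terminal stretch, chromosome 4 held 13.4, 3.93, 11.0 and 18.1 peaks per Mb, and 17 of its 23 regions (73.9%) overlapped a gene, where genes cover 83.7%. The deficit of all zones together was larger without it, with a mean log2 ratio of -0.76.

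The spacing of regions differed between the zones. The median distance to the nearest region was 522 bp on chromosome 4, 2647 bp on 3L and 3206.5 bp on 3R, under the 3779 bp of the rest, and 6552 bp on 2L and 5500 bp on X, above it. Over all zones it was 2942.5 bp, and 3138 bp without chromosome 4. A neighbour closer than 1 kb was found for 35.5% of zone regions (33.3% without chromosome 4) against 22.5% on the rest. Regions joined by gaps under 5 kb formed 21 chains of 4 or more, which held 125 of the 442 regions (28.3%) against 22.1% on the rest. Without chromosome 4 it was 94 of 393 (23.9%). The longest chain of the zones, 22 regions, lay in the terminal stretch of chromosome 4, and the longest on the rest had 19.

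The strongest regions shared by all 4 libraries were found in and out of genes in each zone. On 3L the regions at 23829686 to 23830457 and 24494837 to 24495563 overlapped no gene and had 2.90, 2.26, 2.64 and 2.73, and 2.60, 1.75, 2.79 and 2.75. On 3R, 3813552 to 3814094 had 2.92, 2.05, 2.65 and 3.40, and 3820179 to 3820570, in the same chain of 7 regions, 2.16, 2.46, 2.86 and 3.35. In the first of this pair control 1 lay above Sam-S 1, and in the second both control libraries lay below both Sam-S libraries. That second order was also seen at other named regions, among them those of AGO3 and X. How many shared regions show it was not counted.

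On X, 22092714 to 22093177 overlapped no gene and had 2.66, 1.71, 2.68 and 2.69. Control 2 stood alone there, with the other 3 libraries nearly equal. X 22791649 to 22791976, in the noncoding RNA gene lncRNA:CR44997, had 2.39, 1.69, 2.64 and 2.89, and X 23398809 to 23399255 had 2.07, 1.61, 2.21 and 2.41. On 2L the highest was 23037302 to 23037623, with 2.16, 1.74, 2.31 and 2.26. The 2L region 23383436 to 23384111 had 2.06, 1.70, 2.104 and 2.52, and 22254641 to 22254933, in the RNA polymerase I initiation factor gene Tif-IA, 2.22, 1.76, 2.00 and 2.20. In the terminal stretch of chromosome 4, 1319365 to 1319758 had 2.63, 1.78, 2.61 and 2.40.

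Across all libraries, 43 of the 442 regions (9.73%, Wilson 95% interval 7.30 to 12.8) had a peak in all 4, against 8.07% of all 7001 regions. Without control 2, 165 regions had a peak in each of the other 3 libraries. The most frequent shared set was control 1 with both Sam-S libraries, 122 regions (27.6%) against 24.2% of all regions. Sam-S 2 alone accounted for 130 regions (29.4%) against 26.9%. Sam-S 1 alone accounted for 29 regions (6.56%, Wilson 95% interval 4.61 to 9.26) against 12.4% of all regions and 13.9% on the rest. On chromosome 4 9 of 49 regions (18.4%) had a peak in all 4 libraries.

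A peak in Sam-S 1 and Sam-S 2 with none in either control marked 46 of the 442 regions (10.4%, Wilson 95% interval 7.89 to 13.6), near the 11.9% of all regions. Those with the highest folds overlapped no gene and lay on X at 22019355 to 22019667 (2.26 and 2.74 in Sam-S 1 and Sam-S 2), on 3R at 3429502 to 3429766 (2.19 and 2.68) and on X at 22055788 to 22056106 (2.04 and 2.60). Peaks in both control libraries alone were found at 1 region (0.226%), against 0.157% of all regions, at 3L 27076684 to 27077551 with folds of 1.62 and 1.56. The count of 46 depended on control 1 and on both Sam-S libraries: it was 46 without control 2, 168 without control 1, 176 without Sam-S 1 and 78 without Sam-S 2.

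The comparison of genotypes asks whether Sam-S overexpression in the germline goes with a different 6mA profile of these zones. Zone peaks numbered 144.5 ± 136 (SD, n = 2) in control libraries and 314.5 ± 91.2 (SD, n = 2) with Sam-S, a log2 difference of 1.52. The exact permutation p was 0.33 (two-sided), the smallest that 2 against 2 libraries allow, so this test cannot pass 0.05 for any genotype difference. In batch 1 Sam-S had 1.04 times the peaks of control, and in batch 2 7.90 times. Without control 2 the log2 difference was 0.35, and without control 1 it was 2.68. Whether the batch 2 value reflects genotype or the short control 2 list cannot be told apart.

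The same held in each zone. The batch 1 ratio of Sam-S to control peak numbers was 0.88 on 2L, 1.06 on 3L, 1.05 on 3R, 1.2 on X and 0.914 on chromosome 4. The batch 2 ratio was 8, 11.5, 6.93, 7.86 and 4.60. In batch 1 the zones thus had 0.88 to 1.2 times as many peaks in Sam-S as in control, and the arms outside the zones held 34.6 peaks per Mb in Sam-S 1 against 25.9 in control 1. The genotype difference in the log2 ratio of zone to rest was -0.26 (-0.37 in batch 1 and -0.15 in batch 2; exact permutation p = 0.33, two-sided), and -0.21 without control 2.

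The median fold of zone peaks was higher in both Sam-S libraries than in both controls, 2.01 ± 0.015 against 1.82 ± 0.097 (SD, n = 2 each). The difference was 0.189 (0.110 in batch 1 and 0.267 in batch 2), with an exact permutation p of 0.33 (two-sided), and the groups did not overlap. Without control 2 it was 0.120. The lists hold different peaks, so this compares what was called, not the same sites. The same separation was seen on the rest of the arms. Median folds there were 1.94 and 1.99 in Sam-S 1 and Sam-S 2, against 1.90 and 1.78 in control 1 and control 2.

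The same sites could be compared at the 43 regions that every library called. Their median folds were 2.21, 1.76, 2.25 and 2.45. Sam-S 1 was above control 1 at 26 of 43 (60.5%), against 75.4% of the 565 such regions of the genome, with a median log2 ratio of 0.03. Sam-S 2 was above control 2 at 42 (97.7%), against 97.2% of the 565, with a median log2 ratio of 0.48. Between the control libraries the median log2 ratio of control 2 to control 1 was -0.33, larger in size than the batch 1 difference between genotypes. The difference of genotype means was 0.362 (exact permutation p = 0.33, two-sided). It was 0.137 without the control 2 folds, at the same 43 regions, which control 2 still helped to select. With control 2 kept, the difference was 0.444 over the 565 regions and 0.447 on the rest of the arms.

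By zone, Sam-S 1 was above control 1 at 2 of 4 such regions on 2L, 5 of 11 on 3L, 7 of 13 on 3R, 6 of 6 on X and 6 of 9 on chromosome 4. Sam-S 2 was above control 2 at all of them but 1, on 3R. On the rest of the arms the counts were 318 (78.1%) and 401 (98.5%) of 407. Regions are not replicates, and these counts carry no test.

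**Figure D2:**
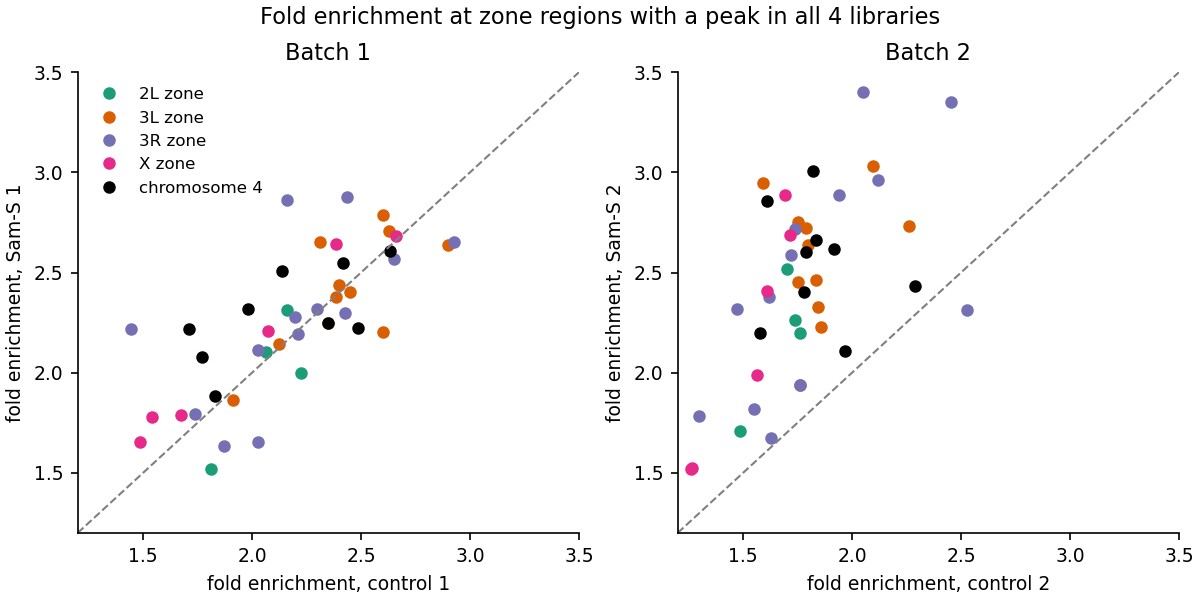
Fold enrichment at the 43 zone regions called in every library, Sam-S against control for batch 1 (left) and batch 2 (right), with the line of equal folds. In batch 1 the points lie on both sides of the line, 26 of 43 above it, and in batch 2 42 of 43 lie above it.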

How the data were processed

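Genomic DNA of ovaries (2 control, 2 Sam-S) was immunoprecipitated with a 6mA antibody, per the labels, and 4 inputs were sequenced beside it. Reads were aligned with Bowtie2, per the submitters' processing notes. Peaks were called with MACS 2.1.1.20160309 per library against its own input, per the file headers, with an extension of 200 bp per tag, a limit of 1 tag at each position, the smaller library scaled up, an effective genome of 120 Mb and a q cutoff of 0.05. The header paths name unique alignments. The deposited columns used are start, end, summit pileup (signal) and fold enrichment, a ratio to the local background. The deposited −log10 p and −log10 q values, per the file headers, were used only for stricter cutoffs. The transposon lists were not used.

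Peaks sharing at least 1 bp were merged, and zones were assigned by midpoint. Background was recovered as (pileup + 1) divided by fold, minus 1. A region takes its highest fold per library. Zone lengths end at the last base of a peak or gene, and on 3R at the start of the arm. Genes were taken from RefSeq positions (release 6) by symbol. A region's base composition, motifs and repeats were not analysed here. Differences between zones and the rest were tested by an exact sign-flip permutation over 4 libraries (smallest p 0.125), genotypes by exact permutation of 2 against 2 (smallest p 0.33). Wilson and Poisson intervals are at 95% and cover counting error only. Nothing in the labels says that the replicates come from separate flies or cultures, so p-values measure the spread between samples, which may be technical. The replicate number equals the batch number recorded for each sample and was used to pair the samples. The deviations of same-numbered libraries from their group means correlated at -0.04 over 565 regions with 4 peaks, and at -0.20 over the 43 of them in the zones.

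Named are the 3 regions per zone in most libraries with the highest mean fold, the 3 of each genotype-only set, the 3 genes with most regions, and the members of 2 gene lists with a region. The members and lists were chosen with earlier results of these data known. Regions at the zone borders, the listed genes without a region, the regions with the highest mean fold or width, and the segments of chromosome 4 were chosen after their values were seen. Alternatives were stricter q, fold and list-length cutoffs, other merging gaps and borders, chromosome 4 alone or left out, and each library left out. The scripts were tested on simulated lists. No per-sample columns were left unused (0). Computation used scipy 1.17.1, pandas 2.3.3 and numpy 2.4.6 under Python 3.11.15, with figures from matplotlib 3.10.9.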

Additional observations from a re-analysis of the deposited data

Results flagged for a closer look

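Over 48 flag comparisons examined, 16 values were flagged, those of the 4 libraries for each of 4 zone quantities. For each quantity both control libraries moved one way and both Sam-S libraries the other. With all zones together the median fold differed from the rest by -0.0125 in control 1 and -0.0306 in control 2, and by 0.0526 and 0.0251 in the Sam-S libraries. The same pattern was seen on 3R, with -0.0375 and -0.0186 in control 1 and control 2 and 0.0620 and 0.0449 in Sam-S 1 and Sam-S 2. For peak density against the rest, the log2 ratio on 2L was 0.0748 and 0.106 in the control libraries and -0.52 and -0.28 in the Sam-S libraries. On chromosome 4 it was 0.0081 and 0.63 in the control libraries and -0.54 and -0.30 in the Sam-S libraries.

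The difference between genotypes was 0.0604 and 0.0815 for the folds of all zones and of 3R, and -0.49 and -0.74 for the log2 ratios of 2L and chromosome 4. The exact permutation p was 0.33 (two-sided) for each, the smallest that 2 against 2 libraries allow. The control 2 value of 2L rests on 4 peaks and that of chromosome 4 on 10.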

How the results depend on the processing

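The lower peak density, the greater width and the lower gene share of zone peaks kept the sign of their mean under the alternatives run. Chromosome 4 was the only zone run alone, and there the density exceeded that of the rest in both control libraries. In the 2L zone the mean width difference was -2 bp. The mean log2 density ratio ranged from -1.31 (genes only) to -0.05 (chromosome 4 alone), and from -0.71 to -0.55 with each library left out. Weighting each zone against its own arm gave -0.61. The width difference ranged from 16.5 to 58.75 bp (19.7 to 25.3 with a library left out) and the gene share difference from -52.8 to -40.0 percentage points. The fold difference of 0.0086 changed sign with a fold of at least 2 (-0.0073), with chromosome 4 left out (-0.0081) and with equal numbers of top peaks (-0.0269), and ranged from -0.0060 to 0.0217 with a library left out. The difference in the share of peaks with high input, -10.6 points, became 2.51 on chromosome 4 alone and 2.81 with equal numbers of top peaks. The genotype difference in the zone ratio became 0.0626 with a fold of at least 1.8 and 0.0263 in genes only. Regions in all 4 libraries numbered 14 and 7 with a fold of at least 1.8 and 2, 9 on chromosome 4 alone, 17 with equal numbers of top peaks and 43 to 165 with a library left out. Regions in both Sam-S libraries only numbered 3 on chromosome 4 alone, 4 with equal numbers of top peaks and 46 to 176 with a library left out. For these changes the cause was not tested, except that a single zone, a shorter list or fewer libraries changes how many regions can qualify. The log2 genotype difference in peak number ranged from 0.35 to 2.68 with a library left out and from 0.08 (equal numbers of top peaks) to 2.53 otherwise, and that in median fold from 0.120 to 0.257 and from 0.070 to 0.485. With the replicate number as a block the genotype differences were 1.52, 0.189 and -0.26, with an exact permutation p of 0.5 each, the smallest possible, and the crossed pairing gave 0.5 too. These permutation tests cannot pass 0.05. Leaving out the end of chromosome 4, counting 3R from its first peak, the weighting by arm and the crossed pairing were chosen after seeing the data. The short control 2 list, with 48 zone peaks, limits every statement on single zones of that library.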

Other observations

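A stretch of 92.2 kb on 3L, from 27006649 to 27098850, was chosen after its values were seen. It held 14 regions, none in a gene, with mean folds of 1.29 to 1.86. Control 1 had a peak at 13 of them, control 2 at 1, Sam-S 1 at 2 and Sam-S 2 at 5, so that control 1 alone called most of them. It holds the 1 zone region that was in both control lists and neither Sam-S list. The median input background at its peaks was 1.46 and 1.17 times the genome-wide value in the control libraries of batches 1 and 2, and 1.73 and 2.04 times in their Sam-S counterparts.

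Annotated ribosomal RNA pseudogenes on X overlapped 6 regions between 23206189 and 23282501, and 2 of these regions also overlapped pre-rRNA:CR45856. All 6 had a peak in Sam-S 2 alone, with folds of 1.23 to 1.38 and an input background of 2.23 to 4.43 times the genome-wide value. Ribosomal RNA genes occur in many similar copies, so the place of such reads is uncertain. Sam-S 2 alone accounted for 22 regions of the X zone, and for 16 without these.

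The highest pileup of the zones was 365 and 384 in the control libraries of batches 1 and 2, and 400 and 479 in their Sam-S counterparts. Both Sam-S values lie at the ceiling of their libraries. Other chains of neighbouring regions lay outside chromosome 4: 8 regions on 3R at 3599233 to 3608870, 7 on 3L at 24492313 to 24502762 and 6 in Myo81F at 619340 to 625802.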
